A study of Mus musculus with 8 samples.

Results

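Late-stage neutrophil genes are those that a neutrophil expresses toward the end of its maturation, and 8 of them were followed here: Mmp9, Retnlg, Cxcr2, Csf3r, Il1b, Ccl6, Mxd1 and Padi4. They were chosen by gene symbol, and each symbol matched 1 of the 52550 genes with a value in the deposited tables. The tables hold RNA sequencing of B cell precursors sorted from mouse bone marrow, from wild type (WT) C57BL/6J mice and from lactoferrin knockout (Lf-/-) C57BL/6J mice, with no treatment in any group. The pre-pro-B stage has 2 WT and 2 Lf-/- libraries, and the pro-B stage has 1 WT and 2 Lf-/- libraries. A second WT pro-B library is described in the labels and was not analysed here. All 4 groups share the strain and the sorting of bone marrow by surface markers, the controls were littermates matched for age, and the ages in weeks are not given in the sources used here. The labels number 2 samples in each group whereas the methods speak of 3 mice, and whether animals were pooled is not given in the sources used here, so p-values measure only the spread between these libraries, which may be technical.

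Neutrophils mature in the bone marrow from promyelocytes that make azurophil (primary) granule proteins such as myeloperoxidase, through myelocytes that make specific (secondary) granule proteins such as lactoferrin, to band and segmented cells. The late cells make gelatinase granules, gain the receptors that let them leave the marrow, and carry transcripts for inflammatory mediators. Pre-pro-B and pro-B cells, the stages named on these libraries, are lymphoid and are not known for these genes.

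The main pattern was a higher level in the Lf-/- pro-B libraries. For 7 of the 8 genes (all but Csf3r) both Lf-/- pro-B libraries lay above each of the 5 other libraries, against 13.5% of the 10793 genes with at least 1 FPKM (sequenced fragments scaled by transcript length and by library total) in at least 2 libraries. The same was true of 6 of the 8 genes after median-ratio scaling, against 5.55% of genes, and of all 8 when Lf-/- pre-pro-B replicate 2 was left out, against 28% of genes. In pre-pro-B cells the Lf-/- libraries lay on both sides of WT for 5 of the 8 genes, and only Padi4 was separated by genotype. In none of the limma tests on all libraries of a comparison did any of the 8 genes pass an adjusted p of 0.05.

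The labels and the makeup of the libraries were checked first. Ltf, which encodes lactoferrin, was between 2143 and 2731 FPKM in the 3 WT libraries and between 88.2 and 168 FPKM in the 4 Lf-/- libraries, so each library matched its genotype. The neutrophil markers S100a8 and S100a9 were at 52882 FPKM or more and 48352 FPKM or more in every library, and a list of 9 neutrophil markers held between 22.9% and 48.3% of each library's summed FPKM. The 13 markers of the sorted B cell stages held 0.0473% to 0.382%, with Cd79a at 86.1 to 261 FPKM in WT and 731 to 1518 FPKM in Lf-/- libraries. The libraries labelled pre-pro-B and pro-B therefore carried far more neutrophil than B cell transcript. In such bulk samples, fewer cells of a type and less RNA per cell cannot be told apart. Between 19477 and 20250 genes were above 0 in 6 libraries, with an estimated 11000000 to 16000000 fragments each. Lf-/- pre-pro-B replicate 2 stood apart, with 12172 genes above 0, an unknown depth and a highest Pearson correlation with another library of 0.838 across genes, against 0.946 to 0.963 for the others. The lowest value of any of the 8 genes in a library of known depth corresponded to about 177 fragments, for Il1b.

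Start sites of the 8 genes were examined because the genes moved largely together between libraries. RefSeq promoter windows on GRCm38.p6, from 250 bases before to 50 after the start, matched 7 genes, and Mmp9 had none. The 4 windows below, cut to 120 bases before and the first 10 bases from the start, were chosen because each holds an ETS core or a TATA box within the cut. Capitals mark the ETS core AGGAAG, which reads CTTCCT on the other strand, the site of the PU.1 family, and the TATA box TATAAA, and each sequence reads 5′ to 3′ on the strand of its gene.
Csf3r, chr4:126024539-126024668, plus strand: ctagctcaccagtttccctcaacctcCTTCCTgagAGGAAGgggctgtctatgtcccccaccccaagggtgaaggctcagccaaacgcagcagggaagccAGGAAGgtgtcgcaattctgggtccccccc
Ccl6, chr11:83593078-83593207, minus strand: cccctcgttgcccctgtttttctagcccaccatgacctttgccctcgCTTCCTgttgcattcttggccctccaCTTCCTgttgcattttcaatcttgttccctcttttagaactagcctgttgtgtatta
Padi4, chr4:140774194-140774323, minus strand: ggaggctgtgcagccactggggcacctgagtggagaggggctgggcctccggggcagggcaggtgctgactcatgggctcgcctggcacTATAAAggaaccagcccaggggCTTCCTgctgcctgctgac
Il1b, chr2:129371130-129371259, minus strand: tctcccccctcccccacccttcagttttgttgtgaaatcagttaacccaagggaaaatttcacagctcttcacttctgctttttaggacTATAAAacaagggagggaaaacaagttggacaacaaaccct

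On both strands of the 300-base windows, the ETS core was found in 4 of the 7 genes (Cxcr2, Csf3r, Padi4 and Ccl6), against 35.35% of the 32851 windows in the table. Csf3r had 4 matches, at positions -130, -94, -85 and -20 from the start, and Ccl6 had 2, at -73 and -47. TATAAA was found in Il1b and Padi4, at -31 in each, against 13.62% of windows. TTGCNNAA, part of the C/EBP site, matched only Retnlg (10.8% of windows). A motif that resembles the NF-kB site, GGGA followed after 4 bases by CC, matched Csf3r and Mxd1 (20.73%), the match in Csf3r at -129 overlapping its ETS core at -130. The E-box CACGTG, the site of MAX dimers, matched Padi4 (7.15%). A match is a description of these letters and shows no binding.

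The secreted products come first. Retnlg encodes resistin-like gamma, a secreted protein made by granulocytes, from chr16:48872621-48874496 on the plus strand (GRCm38, GENCODE M21). It was 1070 and 2680 FPKM in WT cells at the pre-pro-B stage, 669 and 1403 FPKM in the Lf-/- pre-pro-B libraries, 2269 FPKM in WT pro-B cells and 10205 and 3914 FPKM in Lf-/- pro-B cells. It was the most abundant of the 8 genes in every library and had the widest range, 15.3-fold from lowest to highest. The pre-pro-B genotypes overlapped, and both Lf-/- pro-B libraries lay above all others.

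Mmp9 encodes gelatinase B, the enzyme that names the gelatinase granule, from chr2:164940780-164955850 on the plus strand. It was 42.9 and 65.9 FPKM in WT cells at the pre-pro-B stage, 26.2 and 78.2 FPKM in the Lf-/- pre-pro-B libraries, 46.3 FPKM in WT pro-B cells, and 210 and 89.7 FPKM in Lf-/- pro-B cells. The Lf-/- pre-pro-B libraries enclosed both WT values, and the WT pro-B library fell between the WT pre-pro-B libraries.

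Ccl6, a C-C chemokine of myeloid cells, lies on chr11:83587882-83593087 on the minus strand. Its values were 80.1 and 146 FPKM in WT pre-pro-B, 45.9 and 239 FPKM in Lf-/- pre-pro-B, 77.8 FPKM in WT pro-B, and 350 and 246 FPKM in Lf-/- pro-B cells. Lf-/- pre-pro-B replicate 2 was close to the lower Lf-/- pro-B library.

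Il1b encodes interleukin 1 beta, a cytokine made as a precursor and released after cleavage by caspase 1, from chr2:129364570-129371139 on the minus strand. It was 23.4 and 21.8 FPKM in WT cells at the pre-pro-B stage, 11.9 and 60.9 FPKM in the Lf-/- pre-pro-B libraries, 24.3 FPKM in WT pro-B cells, and 138 and 89.5 FPKM in Lf-/- pro-B cells. The 3 WT libraries lay close together, while the Lf-/- libraries spanned 11.6-fold. The antisense gene Il1bos overlaps its exons and whether counting used strand is not given in the sources used here. Il1bos itself was at most 0.337 FPKM.

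The receptors differed from each other. Cxcr2, the receptor for the chemokines that draw neutrophils out of the marrow, lies on chr1:74153989-74161246 on the plus strand. It was 7.91 and 12.0 FPKM in WT cells at the pre-pro-B stage, 6.51 and 23.8 FPKM in the Lf-/- pre-pro-B libraries, 9.54 FPKM in WT pro-B cells, and 47.9 and 30.8 FPKM in Lf-/- pro-B cells. Csf3r, the receptor for granulocyte colony-stimulating factor (G-CSF), lies on chr4:126024550-126044440 on the plus strand. It was 13.6 and 17.5 FPKM in WT cells at the pre-pro-B stage, 9.57 and 21.7 FPKM in the Lf-/- pre-pro-B libraries, 16.4 FPKM in WT pro-B cells, and 20.2 and 21.1 FPKM in Lf-/- pro-B cells. Cxcr2 varied 7.36-fold over the libraries and Csf3r 2.27-fold, the narrowest range of the 8 genes.

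The nuclear proteins had the lowest means over the 7 libraries. Mxd1 encodes a partner of MAX that opposes MYC and accompanies the end of cell division, from chr6:86647042-86669161 on the minus strand. It was 14.7 and 9.34 FPKM in WT cells at the pre-pro-B stage, 8.02 and 13.6 FPKM in the Lf-/- pre-pro-B libraries, 12.4 FPKM in WT pro-B cells, and 30.1 and 16.3 FPKM in Lf-/- pro-B cells. The 4 pre-pro-B values overlapped between genotypes. Padi4 encodes peptidylarginine deiminase 4, which converts histone arginines to citrulline when neutrophils release chromatin, from chr4:140745865-140774236 on the minus strand. It was 14.9 and 13.6 FPKM in WT cells at the pre-pro-B stage, 7.28 and 4.15 FPKM in the Lf-/- pre-pro-B libraries, 10.9 FPKM in WT pro-B cells, and 23.9 and 17.9 FPKM in Lf-/- pro-B cells. Padi4 alone had both Lf-/- pre-pro-B values below both WT values.

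**Figure D1:**
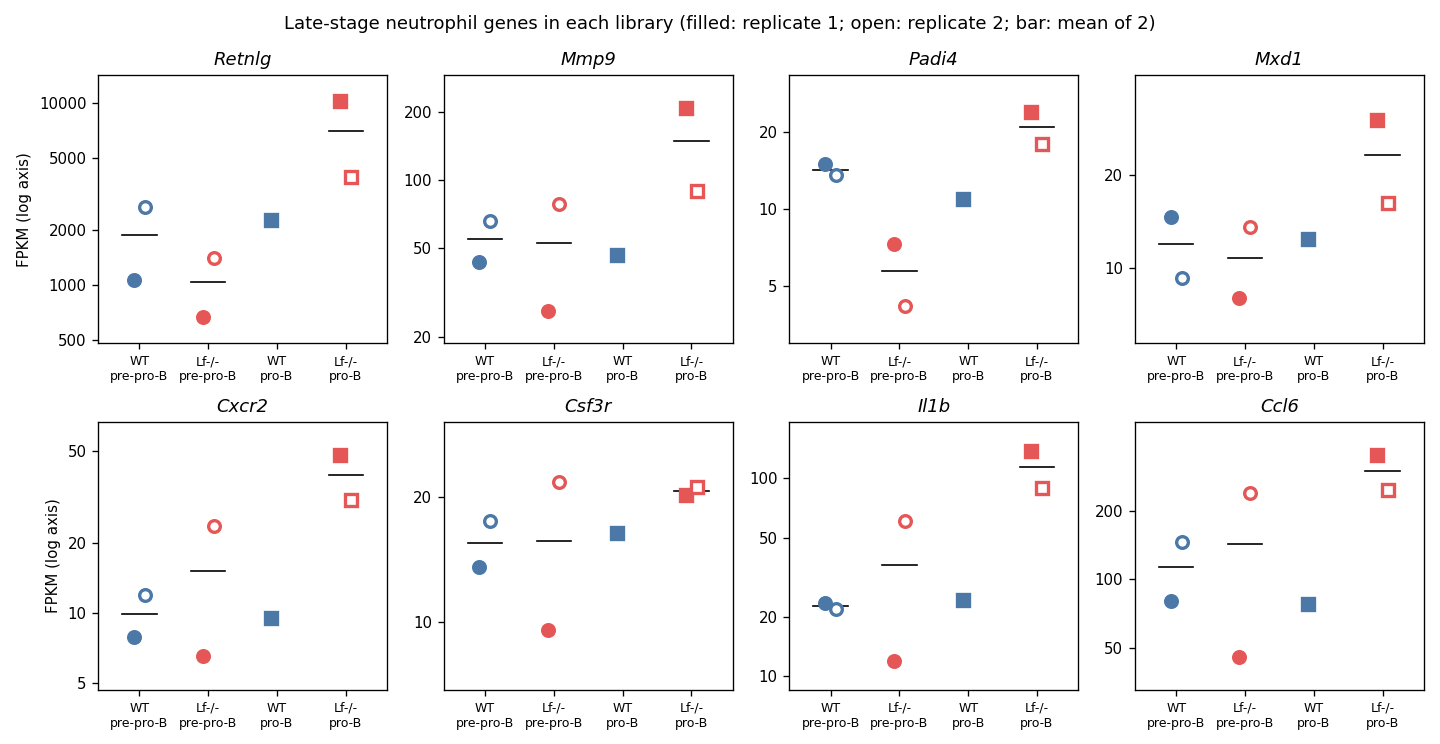
FPKM of the 8 genes (log axis, 1 panel a gene) in the 4 groups, with filled symbols for replicate 1, open symbols for replicate 2 and a bar at the mean of 2 libraries. The 2 Lf-/- pro-B libraries are the highest points in every panel but that of Csf3r, where Lf-/- pre-pro-B replicate 2 reaches 21.7 FPKM.

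The 8 genes summed to 1267 and 2967 FPKM in WT cells at the pre-pro-B stage, 784 and 1845 FPKM in the Lf-/- pre-pro-B libraries, 2466 FPKM in WT pro-B cells, and 11024 and 4425 FPKM in Lf-/- pro-B cells. As a share of the library's summed FPKM this was 0.0940% to 0.383% in the 5 libraries outside the Lf-/- pro-B group, and 1.50% and 0.604% within it. Retnlg made up most of the sum. Without it the sums were 115 to 442 FPKM in the 5 libraries and 819 and 511 FPKM in Lf-/- pro-B cells.

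Likeness between the genes was described over the 7 libraries on the log2(FPKM + 1) scale, as the Pearson correlation of each gene with the mean of the other 7 after centring. It was 0.978 for Mmp9, 0.942 for Cxcr2, 0.938 for Il1b, 0.911 for Ccl6, 0.899 for Retnlg, 0.862 for Mxd1, 0.805 for Csf3r and 0.491 for Padi4. These libraries share their scaling and their composition, so the correlations carry no test. Padi4 departed from the rest in Lf-/- pre-pro-B replicate 2, its lowest library, where 5 of the other genes exceeded both WT values.

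**Figure D2:**
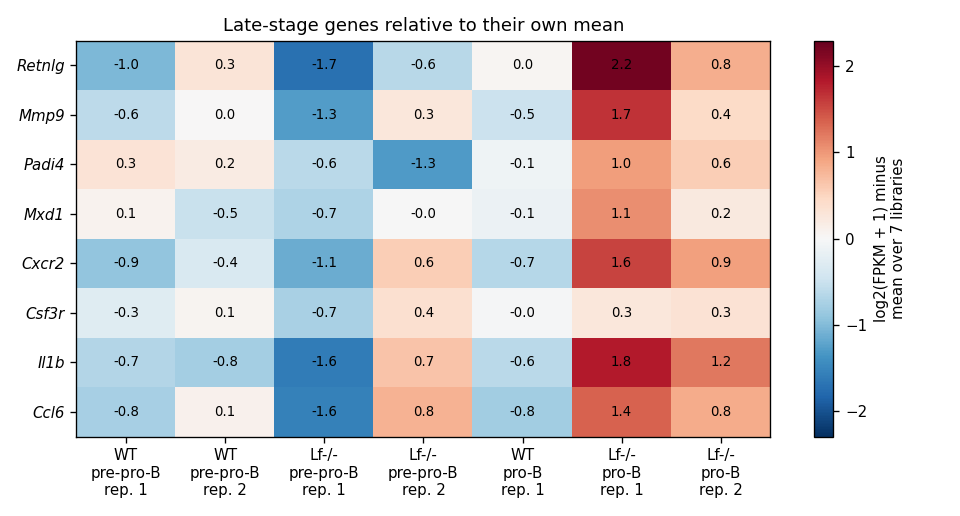
Each gene's log2(FPKM + 1) minus its mean over the 7 libraries (colour and printed value), with genes in lines and libraries in columns. Lf-/- pre-pro-B replicate 1 is blue for all 8 genes, Lf-/- pro-B replicate 1 is red for all 8, and Padi4 alone is strongly blue in Lf-/- pre-pro-B replicate 2.

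The first comparison asked how Lf-/- pre-pro-B cells differed from WT pre-pro-B cells. Padi4 averaged 14.3 ± 0.942 FPKM in WT and 5.72 ± 2.21 FPKM in Lf-/- cells (SD, n = 2 each). Its difference was -1.22 ± 0.47 (SE) on the log2(FPKM + 1) scale, with an unadjusted limma p of 0.0416 and a Benjamini-Hochberg adjusted p of 0.941 over 9720 genes. It was the only 1 of the 8 genes whose groups did not overlap, against 33.2% of genes (17.7% with every Lf-/- library lower), and the only 1 with an unadjusted p under 0.05, against 2.92% of genes (0.926% lower). The share of all genes with an adjusted p under 0.05 in limma was 0%, with 284 genes at an unadjusted p under 0.05. For a single gene an exact permutation test of 2 against 2 libraries cannot give a two-sided p below 0.333.

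The other 7 differences lay between -0.81 (Retnlg) and 0.34 (Cxcr2), with standard errors of 0.50 to 0.84 and limma adjusted p of 0.941 to 0.994. The difference of Retnlg was -1.47 without WT replicate 1 and -0.14 without WT replicate 2. The median of the 8 differences was -0.12, beside 0.03 for all genes. The Lf-/- libraries lay on different sides of WT. Replicate 1 was below both WT libraries for all 8 genes, against 44.2% of genes (also all 8 after median-ratio scaling, against 36.1%), and replicate 2 was above both for 5 of the 8, against 49.1% of genes. The median of the 8 differences was -0.88 without Lf-/- replicate 2 and 0.51 without Lf-/- replicate 1. Without replicate 1, limma called Il1b (1.39) and Padi4 (-1.56) among 3338 genes with an adjusted p under 0.05. In that fit the lone Lf-/- library is the one that stands apart and is assumed to vary like the WT libraries.

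The second comparison asked the same of pro-B cells, where the 1 WT library gives no spread of its own. Both Lf-/- libraries were above the WT library for all 8 genes, against 77.3% of the 9662 genes compared. Il1b differed most, by 2.14 on the log2(FPKM + 1) scale, followed by Cxcr2 (1.90), Ccl6 (1.90), Mmp9 (1.55) and Retnlg (1.48). These 5 genes were at least 2-fold higher, against 13.5% of genes, while 1.07% of genes were as much lower. Padi4 (0.86), Mxd1 (0.79) and Csf3r (0.32) were under 2-fold. The median of the 8 genes was 1.51, beside 0.51 for all genes. In a limma fit over all 7 libraries, which assumes that the lone WT library varies like the others, Cxcr2 and Il1b had an unadjusted p under 0.05, against 4.9% of genes, and the share of genes with an adjusted p under 0.05 was 0% (473 unadjusted).

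The shift of all genes depended on scaling. Median-ratio size factors over all 7 libraries ranged from 0.730 in the WT pro-B library to 1.32 in Lf-/- pre-pro-B replicate 2. The pro-B comparison used factors computed from its own 3 libraries, and after dividing by those the median of all genes was -0.01. The share of 2-fold differences that were higher then went from 92.7% to 52.0%. Il1b (1.49), Cxcr2 (1.27) and Ccl6 (1.23) stayed at least 2-fold higher, against 4.13% of genes, while 3.82% were as much lower. Mmp9 (0.88), Retnlg (0.80), Padi4 (0.23) and Mxd1 (0.15) were under 2-fold, and Csf3r turned to -0.32. The 2 Lf-/- pro-B libraries also differed, replicate 1 being higher for 7 of the 8 genes against 54% of genes. The median difference was 2.15 with replicate 1 alone and 0.86 with replicate 2 alone. With replicate 1 alone 7 of the 8 genes were 2-fold apart, against 18.9% of genes, and with replicate 2 alone 3 were, against 12.7%.

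**Figure D3:**
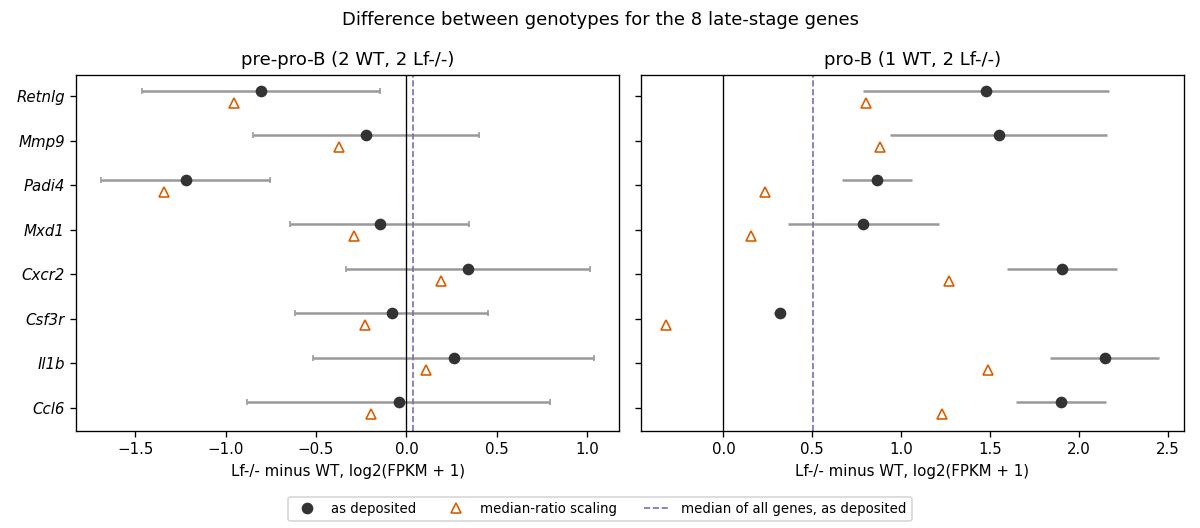
Lf-/- minus WT on the log2(FPKM + 1) scale for the 8 genes in pre-pro-B cells (left, bars are the limma standard error) and pro-B cells (right, lines join the values from each Lf-/- library alone), as deposited (circles) and after median-ratio scaling (triangles), with the median of all genes dashed. In pro-B cells all 8 circles are above 0, and the triangle of Csf3r is at -0.32.

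Over both stages, with stage in the fit and 3 WT against 4 Lf-/- libraries, none of the 8 genes had a limma unadjusted p under 0.05, against 7.17% of 10793 genes, and 0.185% of genes had an adjusted p under 0.05. The largest differences were Il1b (1.01 ± 0.59, SE) and Cxcr2 (0.97 ± 0.51), each with a limma adjusted p of 0.689. Leaving out 1 library moved Il1b from 0.26 to 1.77 and Cxcr2 from 0.34 to 1.55, in both cases lowest without the WT pro-B library and highest without Lf-/- pre-pro-B replicate 1, and median-ratio scaling gave 0.66 and 0.62. Padi4 was the 1 gene lower in Lf-/- libraries, by -0.39 ± 0.46.

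Between stages, with genotype in the fit, all 8 genes were higher in pro-B than in pre-pro-B libraries, against 47.4% of all genes. The median of the 8 differences was 0.88, beside -0.03 for all genes. With 1 library left out at a time this median ran from 0.35 to 1.55, lowest when Lf-/- pre-pro-B replicate 1 was omitted and highest when the WT pro-B library was. Retnlg differed most, by 1.79 ± 0.61 (SE), with a limma unadjusted p of 0.0164 and an adjusted p of 0.947. It was the only 1 of the 8 genes at an unadjusted p under 0.05, against 2.41% of genes (1.25% higher), while 0.00927% of genes had an adjusted p under 0.05. Within WT the pro-B library lay between the pre-pro-B libraries for 5 of the 8 genes, against 26.1% of genes. It was below both for Ccl6 (77.8 against 80.1 and 146 FPKM) and Padi4 (10.9 against 14.9 and 13.6 FPKM). For Il1b it was above both (24.3 against 23.4 and 21.8 FPKM).

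The difference between the genotype differences of the stages was tested in a fit with the 4 groups. It was largest for Retnlg (2.28 ± 1.09, SE) and Padi4 (2.09 ± 0.64). Padi4 had a limma unadjusted p of 0.0139 and an adjusted p of 0.99, and was the only 1 of the 8 genes at an unadjusted p under 0.05, against 2.74% of genes (2.53% higher). The WT pro-B arm is 1 library, and the other groups supply its spread. With median-ratio scaling the limma unadjusted p of Padi4 was 0.0583 (1.59), and with quantile normalization 0.0580 (1.58). The median over the 8 genes was 1.83, beside 0.45 for all genes. The stage, genotype and difference tests share libraries and are not independent of each other.

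The pathway of each gene was described by a list. In pro-B cells as deposited, 87.3% of all genes were higher in Lf-/- cells, 13.5% at least 2-fold, and 1.07% were at least 2-fold lower. After median-ratio scaling these shares were 48.9%, 4.13% and 3.82%. Of 24 other late neutrophil genes, 9 of the 23 measured in pro-B cells were at least 2-fold higher in Lf-/- cells and none as much lower. After median-ratio scaling 5 were and 1 was as much lower, and 13 instead of 19 were higher at all. Slpi, an inhibitor of neutrophil proteases, was 336 FPKM in WT and 524 and 472 FPKM in Lf-/- pro-B cells, and G0s2, an inhibitor of lipid breakdown, was 102 against 210 and 189 FPKM. Il1r2, the decoy receptor for interleukin 1, was 37.3 against 82.8 and 32.0 FPKM. In pre-pro-B cells 9 of 22 were higher and 13 lower, and none had an unadjusted p under 0.05. Between stages 5 of 23 did (G0s2, Stfa2l1, Cxcl2, Tnfaip2 and Adam8, all higher in pro-B libraries), against 2.41% of all genes (1.25% higher), and none passed the adjusted threshold in limma.

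Of 12 ligands, receptors and signaling proteins of the Cxcr2 axis, 6 were tested. Cxcr4 is the receptor that holds cells in the marrow. It was the 1 with an unadjusted limma p under 0.05 in pre-pro-B cells (adjusted 0.941), against 2.92% of genes. It was 4.20 and 4.25 FPKM in WT and 12.1 and 25.4 FPKM in Lf-/- libraries (1.83 on the log2 scale). None of the 6 was at least 2-fold higher in Lf-/- pro-B cells and 1 was as much lower (2 after median-ratio scaling). Of 5 C-C chemokines and receptors, the chemokines Ccl3 (76.3 against 288 and 175 FPKM) and Ccl4 (89.3 against 316 and 188 FPKM) were at least 2-fold higher in Lf-/- pro-B cells, and neither was after median-ratio scaling (0.88 and 0.77 on the log2 scale). Of the same list only the receptor Ccr3 had an unadjusted limma p under 0.05 in pre-pro-B cells (adjusted 0.941), against 2.92% of genes. It was 2.97 and 2.16 FPKM in WT and 0.525 FPKM in Lf-/- replicate 1. It was listed at 0 in Lf-/- replicate 2, the library with 12172 genes above 0.

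Of 12 genes of the interleukin 1 pathway, 9 were compared in pro-B cells, 8 were higher in Lf-/- cells, and 1 was at least 2-fold so, near the shares of all genes. After median-ratio scaling 6 were higher and none 2-fold. Pycard, the inflammasome adaptor, was 17.6 FPKM in WT and 29.8 and 33.1 FPKM in Lf-/- pro-B cells. Of 12 genes of G-CSF receptor signaling, 1 of 10 was at least 2-fold higher, near the share of all genes, and none after median-ratio scaling. Cebpe, a transcription factor of granule maturation, was 220 against 121 and 268 FPKM, and Cebpb, the factor of emergency granulopoiesis, was 119 against 210 and 169 FPKM. Of 10 genes of the MAX network, 2 of 6 were at least 2-fold higher and none after median-ratio scaling, with Myc at 4.53 against 7.10 and 9.19 FPKM.

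The relatives of Mmp9, Retnlg and Padi4 reached at most 15.8 FPKM. Of 6 gelatinase inhibitors and partners, Cd44 was highest, at 9.32 FPKM in WT and 15.8 and 11.4 FPKM in Lf-/- pro-B cells. Its log2 difference was 0.48, and -0.14 after median-ratio scaling. Timp2, which inhibits gelatinases, was 4.29 FPKM in WT and 14.0 and 11.7 FPKM in Lf-/- pro-B cells. It was the 1 of 3 compared that was at least 2-fold higher, though not after median-ratio scaling (0.80 on the log2 scale). Of the 3 resistin-like relatives of Retnlg, Retnla reached 8.41 FPKM and the others at most 1.14 FPKM. Of 4 deiminases, Padi2 was highest, at 3.38 FPKM in WT and 10.8 and 6.59 FPKM in Lf-/- pro-B cells.

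The 10 genes most like the 8 were found by Pearson correlation with their mean centred profile over 7 libraries, among 3250 genes with at least 5 FPKM in every library. They were Mmp8 (0.988), Lilrb4a, Fpr1, Cd300lf, Prr13, Ppm1m, Itgb7, Il1f9, Grina and Ccl3 (0.941), and 20 genes exceeded 0.9. Mmp8, the neutrophil collagenase, was 53.5 FPKM in WT pro-B and 344 and 154 FPKM in Lf-/- pro-B cells. Fpr1, a receptor for bacterial peptides, was 10.7 against 75.7 and 44.3 FPKM.

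Earlier granule genes are given beside them. Of 11 specific granule genes, 5 were higher and 6 lower in Lf-/- pro-B cells as deposited, with 1 at least 2-fold higher. That gene was Mmp8 (2.08 on the log2 scale), also the gene most like the 8. After median-ratio scaling Mmp8 (1.42) alone was higher, and 5 of the 11 were at least 2-fold lower, against 3.82% of genes. Ngp was 84746 FPKM in WT and 43393 and 48985 FPKM in Lf-/- pro-B cells. Of 7 azurophil granule genes, 6 were lower, 4 of them at least 2-fold against 1.07% of all genes, and 6 at least 2-fold after median-ratio scaling against 3.82%. Elane, neutrophil elastase, was 18996 FPKM in WT and 2673 and 10234 FPKM in Lf-/- pro-B cells, and Mpo was 3157 against 835 and 1818 FPKM. In pre-pro-B cells 6 of the 7 azurophil genes were also lower in Lf-/- libraries, with none at an unadjusted limma p under 0.05. Their median there was -0.84, beside 0.03 for all genes. Over both stages Mpo, Elane, Prtn3 and Ctsg were lower at an unadjusted limma p under 0.05, against 7.17% of genes. Their limma adjusted p was 0.560 to 0.632. The mean log2(FPKM + 1) of the 8 late genes minus that of the specific granule genes, a value within a library that scaling hardly touches, was -4.54 to -3.88 in 5 libraries and -2.42 and -3.15 in Lf-/- pro-B cells. With the median in place of the mean, Lf-/- pro-B replicate 2 (-3.97) was below Lf-/- pre-pro-B replicate 2 (-3.82), Lf-/- pro-B replicate 1 was -2.93, and the other 4 libraries were -5.66 to -5.30. Against the azurophil genes it was -4.06 to -2.79 in 5 libraries and -0.50 and -2.45 in Lf-/- pro-B cells.

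Markers of other cells were measured in the same libraries. The 4 basophil and mast cell markers summed to 572 and 454 FPKM in WT pre-pro-B and 250 and 185 FPKM in Lf-/- pre-pro-B libraries. They summed to 485 FPKM in WT pro-B and to 3002 and 2159 FPKM in Lf-/- pro-B cells. There all 3 that were compared were at least 2-fold higher, also after median-ratio scaling. In pre-pro-B cells all 3 were lower in Lf-/- libraries. Mcpt8 and Prss34 were so at an unadjusted limma p under 0.05 (adjusted 0.941), against 2.92% of genes. The difference between the genotype differences of the stages was 3.26 to 3.61 for these 3, beside a median of 0.45 for all genes. Prss34, a basophil protease, was 312 FPKM in WT and 2095 and 1536 FPKM in Lf-/- pro-B cells. The 3 eosinophil markers summed to 335 and 2051 FPKM in Lf-/- pro-B cells and to 860 to 3280 FPKM elsewhere, with Il5ra at 0.0146 to 2.84 FPKM. The 8 monocyte and macrophage markers summed to 69.9 FPKM in each Lf-/- pro-B library and 79.7 FPKM in the WT pro-B library. They summed to 118 to 200.2 FPKM in pre-pro-B libraries. C1qb and C1qa, ranked 1 and 2 of the list by mean FPKM, weigh most in these sums. In the stage fit 6 of the 8 markers were lower and 2 higher in pro-B libraries. C1qa, C1qb and C1qc were lower at an unadjusted limma p under 0.05, against 2.41% of genes, with limma adjusted p of 0.514 to 0.788. The 4 erythroid markers summed to 9085 to 62258 FPKM, highest in Lf-/- pre-pro-B replicate 2. The part of these markers in the levels of the 8 genes was not tested.

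**Figure D4:**
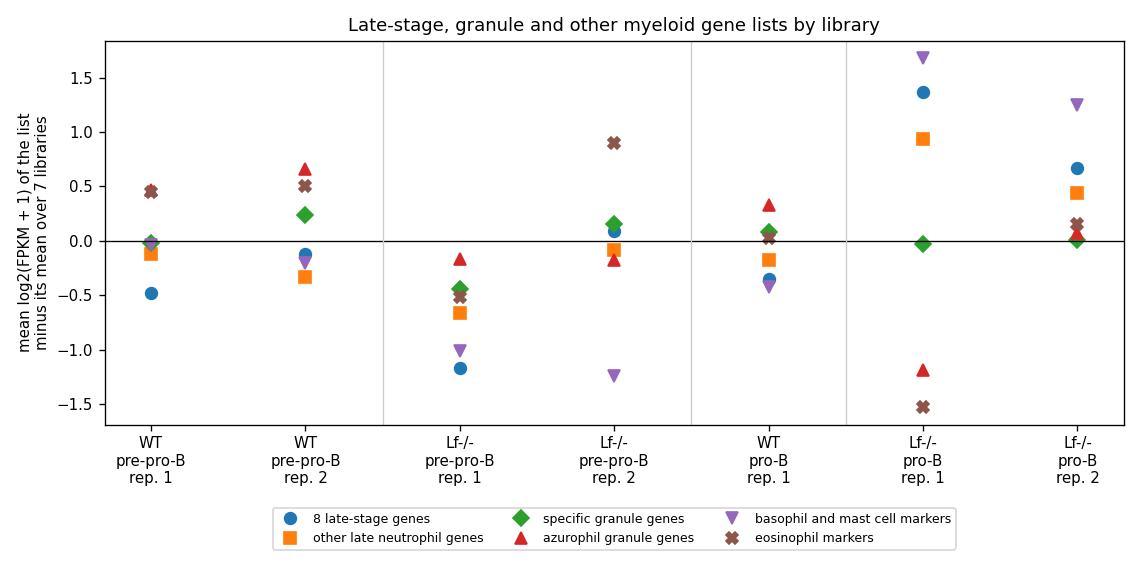
Mean log2(FPKM + 1) of 6 gene lists in each library, as the difference from the list's own mean over 7 libraries. The 8 late-stage genes and the basophil and mast cell markers are highest in the Lf-/- pro-B libraries, whereas the specific granule genes show no such peak and the azurophil genes are lowest in Lf-/- pro-B replicate 1.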

How the data were processed

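RNA of B cell precursors sorted by flow cytometry was sequenced on a NovaSeq instrument. The authors deposited 1 table per library with 1 normalised value per gene. The unit of the deposited values, taken as FPKM, is not stated and was read off the numbers, since the sums differ between libraries (694578 to 834693) and the low values fall on steps set by transcript length. The submitters' processing notes name TopHat, Cufflinks, HTSeq, DESeq and GRCm38, with no versions or roles.

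Values were taken as log2(FPKM + 1). A comparison kept the genes that reached 1 FPKM in 2 or more of its libraries and fitted them in limma 3.58.1 under R 4.3.3 (trended eBayes, two-sided), with Benjamini-Hochberg adjustment over all genes tested, after the script had been tested on simulated data. WT pro-B has 1 library, so the main values of that comparison carry no test, and a limma fit over all 7 libraries was an alternative. Genes were matched to GENCODE M21 (52403 of 52550). Tables used Python 3.11.15, numpy 2.4.6, pandas 2.3.3 and matplotlib 3.10.9. Samples were grouped by their labels. All 8 genes passed the filter in every comparison. Genes named from a list were among its 3 of highest mean FPKM or past a threshold, but not every such gene was named. The 10 genes most like the 8 were named as well. The members and lists were chosen with earlier results of these data known. Alternatives were another pseudocount, scaling or filter, each library left out, a shared fit and a replicate block. Fragment numbers are estimates from the steps, so no counting intervals are given.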

Additional observations from a re-analysis of the deposited data

Results flagged for a closer look

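Padi4 differed between genotypes in opposite directions at the 2 stages. Both Lf-/- pre-pro-B libraries were below both WT libraries (7.28 and 4.15 against 14.9 and 13.6 FPKM), and both Lf-/- pro-B libraries were above the WT library (23.9 and 17.9 against 10.9 FPKM). The difference between the genotype differences was 2.09 on the log2(FPKM + 1) scale, with an unadjusted limma p of 0.0139 and an adjusted p of 0.99, so it failed the correction over all genes. The WT pro-B arm is 1 library, and its spread was taken from the other groups. The value was 1.59 with median-ratio scaling and 1.58 with quantile normalization, with unadjusted limma p of 0.0583 and 0.0580, and the pro-B difference of Padi4 alone went from 0.86 to 0.23 with median-ratio scaling. Of 10793 genes, 1265 (11.7%) were separated in opposite directions in this way.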

How the results depend on the processing

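Of the values recomputed under alternatives, 586 kept their direction and their side of the threshold or stayed close, 72 moved, 31 changed sign and 3 passed a threshold they had missed. The cause of a change was not tested unless the alternative is itself fewer libraries or genes. The replicate numbers did not pair the libraries (Pearson correlation of deviations 0.04 between genotypes in pre-pro-B cells and -0.01 between Lf-/- stages, over 10793 genes). With 2 libraries a group, depth unknown in 1 library and a lone WT pro-B library, small differences of the 8 genes were not detectable. The alternatives of the count of genes highest in Lf-/- pro-B cells, median-ratio scaling and leaving out Lf-/- pre-pro-B replicate 2, were chosen after seeing the data.

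Single genes changed sign as follows (log2 scale). In pre-pro-B cells Ccl6 was 0.0891 with quantile normalization. In pro-B cells Csf3r was -0.32 with median-ratio scaling and -0.30 with quantile normalization. Over both stages, median-ratio scaling gave -0.26 for Retnlg, -0.27 for Csf3r and -0.11 for Mxd1, quantile normalization -0.28 for Csf3r and -0.12 for Mxd1, and the replicate block -0.0123 for Retnlg and -0.0268 for Csf3r. The difference between stages in the genotype difference of Csf3r was -0.0739 with median-ratio scaling and -0.0428 with quantile normalization.

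The replicate block gave, at an adjusted p under 0.05, 65 genes for pre-pro-B cells (0 without it), 22 over both stages (20) and 8 between stages (1), and at an unadjusted p under 0.05, 0 and 3 of the 8 genes for pre-pro-B cells and between stages (1 and 1). Over both stages the number of genes with an adjusted p under 0.05 was 9 with a pseudocount of 0.1, 7 with median-ratio scaling, 11 with quantile normalization, 0 with no filter and 63 with 1 FPKM required in every library. Between stages it was 0 with a pseudocount of 0.1, 0 with quantile normalization, 0 with no filter and 6 with 1 FPKM in every library. For the difference between stages in the genotype difference it was 122 with no filter (0). In pro-B cells 1409 genes were 2-fold apart, 2527 with a pseudocount of 0.1, 768 with median-ratio scaling and 687 with quantile normalization, and 3 of the 8 genes with median-ratio scaling (5). Between stages 4, 5 and 2 of the 8 genes had an unadjusted p under 0.05 with median-ratio scaling, quantile normalization and 1 FPKM in every library, and for the difference between stages 0 did with median-ratio scaling and 0 with quantile normalization.

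Leaving out 1 library at a time gave these ranges. In pre-pro-B cells the median of the 8 differences was -0.88 to 0.51, with 0 to 2 of the 8 genes and 0 to 3338 genes at an adjusted p under 0.05, and 0 to 3 of the 8 at an unadjusted one. Mmp9 was -0.995 to 0.55, Retnlg -1.47 to -0.14, Cxcr2 -0.52 to 1.20, Csf3r -0.63 to 0.47, Il1b -0.87 to 1.39, Ccl6 -1.22 to 1.14 and Mxd1 -0.50 to 0.20. In pro-B cells 3 to 7 of the 8 genes were 2-fold apart. Over both stages 0 to 123 genes had an adjusted p under 0.05 and 0 to 4 of the 8 an unadjusted one, with Mmp9 at -0.22 to 1.05, Retnlg -0.81 to 0.67, Cxcr2 0.34 to 1.55, Il1b 0.26 to 1.77, Csf3r -0.16 to 0.39, Ccl6 -0.0432 to 1.52 and Mxd1 -0.15 to 0.49. Between stages it was 0 to 36 genes and 0 to 5 of the 8, the median of the 8 differences 0.35 to 1.55, with Ccl6 at -0.0902 to 1.47. For the difference between stages in the genotype difference the median was 0.76 to 2.48, with 0 to 561 genes and 0 to 1 of the 8 at an adjusted p under 0.05, 0 to 5 of the 8 at an unadjusted one, and Csf3r at -0.15 to 0.95. The 3338, 561 and the 1 called gene, Padi4 (2.43), came without Lf-/- pre-pro-B replicate 1, and the 123 and 36 without Lf-/- pre-pro-B replicate 2. Without the WT pro-B library no genes had an adjusted p under 0.05 over both stages or between stages.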
